A study of Mus musculus with 10 samples.

Results

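Nnt (nicotinamide nucleotide transhydrogenase) is described here across the cochleae of 10 individual mice. The gene was taken by its symbol, which the deposited tables list under 2 gene identifiers, ENSMUSG00000025453 and ENSMUSG00000116207, of 54532 identifiers in all. Nnt was chosen by the spread of its own counts between these mice, which was already known, so its levels and its difference between groups are given as a description, with no test. RNA was sequenced from whole cochleae of mtKeima mice, which carry a fluorescent reporter of mitophagy and have a mixed genetic background. All mice were 12 months old. In the NR-treated group, 5 mice had drunk nicotinamide riboside (NR, a precursor of NAD+) at 7 mg/ml (24 mM) for 10 months, and in the non-treated group, labelled vehicle, 5 mice had drunk regular water. The study's methods state that the mice were genotyped as wild type for the C57BL/6J Nnt mutation and for the ahl allele of Cdh23.

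NNT is an enzyme of the inner mitochondrial membrane that uses the proton gradient to reduce NADP+ with electrons of NADH. The NADPH it makes feeds the glutathione and thioredoxin systems that remove peroxides in the mitochondrial matrix. The C57BL/6J strain carries a deletion of several exons within Nnt, and the mouse reference assembly mm10 was made from that strain, so the exons lost in it are also absent from the sequence to which the reads were aligned. Counts per exon were not analysed here, and the allele a mouse carried cannot be read from a count per gene.

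Both Nnt identifiers lie on the minus strand of chromosome 13 and overlap almost completely. In mm10 (GRCm38) coordinates, ENSMUSG00000025453 spans chr13:119335448-119408997 and ENSMUSG00000116207 spans chr13:119335528-119408952. Their exons cover 7037 and 3339 bases, and these lengths in the reference annotation (GENCODE vM21) equal the lengths in the deposited tables. All 3339 exon bases of the second identifier are also exon bases of the first. The authors counted reads with featureCounts in its default mode, in which a read that overlaps the exons of more than 1 gene is assigned to neither. The bases on which a read could be counted for Nnt were therefore the 3698 bases of the first identifier, 52.6% of its exons, that the second does not share, and for the second identifier there were 0 such bases.

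Those countable bases lay mostly outside the spliced coding mRNA. They formed 5 segments. A segment of 45 bases at the 5′ end and one of 80 bases at the 3′ end together gave 125 bases. By the counting rule, a read that ran from either of these into shared exon would not be counted. The other 3573 bases, 96.6% of the total, lay in 3 inner segments of 1139, 1506 and 928 bases. The first of these belongs to the retained-intron transcript Nnt-205, the next to the retained-intron transcript Nnt-204 and the third to the early 3′ end of Nnt-203. In Nnt-202, the protein-coding transcript with 17 exons, all 3 stretches are spliced out as introns. Of the 2521 coding bases of the first identifier, 16 could be counted, or 0.635%. The coding transcript Nnt-202 had 125 countable bases of 3464 (3.61%), whereas Nnt-204 had 1551 of 2340 (66.3%) and Nnt-205 had 1184 of 1885 (62.8%). Since the exons of the strain deletion described above are absent from the reference, Nnt-202 as annotated lacks them. It is therefore not the full-length mRNA of the wild-type allele. The second identifier consists of 1 transcript, Nnt-206, with 17 exons and 2505 coding bases, as many coding bases as Nnt-202.

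**Figure D1:**
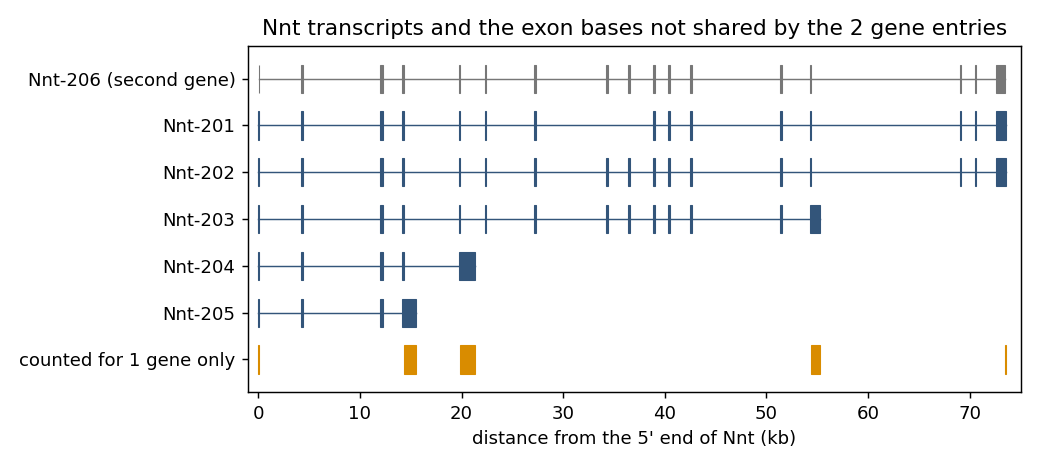
Exons (boxes) of the 6 annotated Nnt transcripts against the distance from the 5′ end of the gene in kb, with the exon bases that are not shared by both gene entries drawn in orange at the bottom. The 5 orange segments add up to 3698 bases, and the 3 wide ones stand where Nnt-205, Nnt-204 and Nnt-203 run into sequence that Nnt-202 splices out.

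The sequences at the edges of the 3 inner segments show which letters separate countable from shared bases. They are shown because, by the counting rule stated above, a read over the shared letters would not be counted for Nnt. Single reads were not followed. They are read 5′ to 3′ on the minus strand from the GENCODE vM21 transcripts. Capitals mark bases that are exonic in 1 Nnt identifier only, and lower case marks bases shared by both. Nnt-205 is shown at chr13:119394581-119394640, with the junction of exons 4 and 5 of Nnt-202 under it. Nnt-204 is shown at chr13:119389164-119389223, with the junction of exons 5 and 6 of Nnt-202 under it. Nnt-203 is shown at chr13:119354643-119354688, where the 16 capitals are all the coding bases that could be counted.
Nnt-205: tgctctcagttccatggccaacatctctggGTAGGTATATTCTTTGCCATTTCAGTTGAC
Nnt-202, exons 4 and 5: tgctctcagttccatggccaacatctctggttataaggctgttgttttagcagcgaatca
Nnt-204: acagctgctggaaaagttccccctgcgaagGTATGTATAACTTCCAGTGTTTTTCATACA
Nnt-202, exons 5 and 6: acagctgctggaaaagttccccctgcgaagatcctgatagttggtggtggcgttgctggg
Nnt-203: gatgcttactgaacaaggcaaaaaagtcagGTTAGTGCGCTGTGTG
In each of the first 2 pairs the first 30 letters are the same, and the retained-intron transcript then reads on into the intron, which opens with GT, while Nnt-202 joins the next exon and stays in lower case.

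The counts follow this layout. ENSMUSG00000116207 had 0 reads in each of the 10 mice. All reads of Nnt were counted for ENSMUSG00000025453, 108 over the 10 mice, and every Nnt value below is of this identifier. Much the same was seen across the annotation: of 1212 genes of any type with no countable exon base, 1180 (97.4%) had no read in any mouse, against 19996 of 52199 (38.3%) with at least 1 such base. For protein-coding genes with no countable exon base the share was lower, 154 of 175 (88%), so some of them had reads. Among protein-coding genes, the median of the mean level was 0.157 CPM (reads of a gene per 1e6 counted reads of the library) over 206 genes that, like Nnt, had some countable exon base but under 1% of their coding bases countable. It was 2.89 CPM over 437 genes with 1% to under 50% countable, 20.6 CPM over 2837 genes with 50% to under 100% and 10.9 CPM over the 17433 genes with all coding bases countable, so it did not rise steadily with that share. Nnt was 1 of 17 protein-coding symbols held by 2 overlapping identifiers, and in 12 of the 17 the shorter model had 0 reads. In 8 of them, Nnt included, both identifiers had under 5% of their coding bases countable. Among these 8, chosen after their values were seen, Hgs, a sorting protein of endosomes, had 0 to 5 reads per mouse, and Zc3h11a, an mRNA export factor, had 94 to 235.

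Nnt counts were low and differed between mice. Each library held from 17060379 to 24419230 counted reads. In the NR-treated mice, replicates 1 to 5 had 5, 14, 11, 1 and 4 Nnt reads. In the non-treated mice, replicates 1 to 5 had 14, 23, 7, 10 and 19. The sums were 35 reads in NR-treated and 73 in non-treated mice. The lowest mouse was NR-treated and the highest was non-treated, and the groups overlapped.

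Scaled to the total count, Nnt was at 0.244, 0.626, 0.480, 0.0439 and 0.234 CPM in NR-treated replicates 1 to 5. It was at 0.700, 0.982, 0.287, 0.435 and 0.876 CPM in non-treated replicates 1 to 5. The 1 read of NR-treated replicate 4 was below the level of 3 reads in that library, 0.132 CPM. Exact 95% Poisson intervals, which cover counting error only, ran from 0.00111 to 0.244 CPM in that mouse, the lowest, and from 0.623 to 1.47 CPM in the highest, non-treated replicate 2. The interval of NR-treated replicate 2, the highest of its group, ran from 0.343 to 1.05 CPM. That of non-treated replicate 3, the lowest of its group, ran from 0.115 to 0.591 CPM. The intervals of the lowest and the highest mouse did not overlap, and those of the latter 2 mice did.

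**Figure D2:**
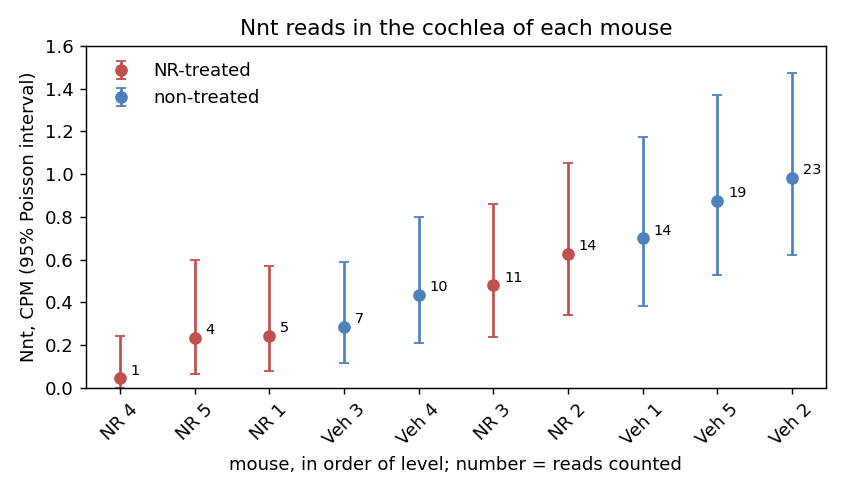
Nnt in CPM (points) with exact 95% Poisson intervals (bars) for each mouse, in order of level from 0.0439 to 0.982 CPM, with the number of reads beside each point. The 5 NR-treated (red) and 5 non-treated (blue) mice are mixed in the middle of the order, and no wide break separates a low from a high set. With 1 to 23 reads per mouse, counting error could hide such a break.

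No separate levels could be seen in the 10 values. With 1 to 23 reads per mouse, counting error could hide such levels, so their absence is not shown. In order of level, the widest step was 0.191 CPM, from NR-treated replicate 4 at 0.0439 to NR-treated replicate 5 at 0.234 CPM, and it took up 20.3% of the range. The next widest step was 0.176 CPM. The smallest was 0.00992 CPM. Neighbours in this order all had overlapping intervals, and of the 45 pairs of mice only 7 had intervals that did not overlap. NR-treated replicate 4 was in 4 of these pairs and non-treated replicate 2 in 4, with 1 pair made of both. The ratio of the highest to the lowest mouse was 22.4, and 4.19 to the second lowest mouse. On the log2 CPM scale, with a prior count of 2, the widest step took 41.1% of the range, more than in 82.5% of the 18329 genes tested (median 30.9%). Without NR-treated replicate 4 it took 28.2%, more than in 27.6% of genes (median 33.0%).

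The spread between mice, which is what Nnt was chosen by, is given here with the part that counting alone would give. In NR-treated mice, the coefficient of variation was 70.1%, and counting alone gives 37.8% at the mean of 7 reads. In non-treated mice it was 44.6%, and counting alone gives 26.2% at the mean of 14.6 reads. The variance of the counts was 28.5 and 42.3. edgeR put the biological coefficient of variation of Nnt at 0.477, where its trend over genes of this abundance was at 0.346. The SD of Nnt over the 10 mice was 0.91 on the log2 CPM scale, above that of 97.4% of tested genes (median 0.20). The mean level of Nnt, 0.491 ± 0.302 CPM (SD, n = 10), was above that of only 1.45% of tested genes (median 20.7 CPM). Without NR-treated replicate 4 the SD was 0.66.

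In the comparison of the study, NR-treated against non-treated, Nnt was at 0.326 ± 0.228 CPM (SD, n = 5) in NR-treated and at 0.656 ± 0.293 CPM (SD, n = 5) in non-treated mice. Medians were 0.244 and 0.700 CPM. Per kb of countable exon, the mean levels were 0.0881 and 0.177 CPM. The log2 fold change of NR-treated over non-treated mice was -1.01 (SE 0.53) in the edgeR fit, and the mean of non-treated mice was 2.01 times that of NR-treated mice. Of the non-treated mice, 3 were above every NR-treated mouse, and 3 NR-treated mice were below every non-treated one. The remaining 4 mice lay between 0.287 and 0.626 CPM with the groups mixed. Without NR-treated replicate 4 the log2 fold change was -0.71. By the layout above, this is a difference in reads over bases annotated as retained introns, an early 3′ end and the ends of the mRNA. The positions of the reads were not examined, and unspliced RNA could give reads over the same intron bases. These counts do not give the level of spliced Nnt mRNA. In Nnt-202 only 125 bases were countable, in end segments of 45 and 80 bases next to shared exon. A read that ran from either segment into shared exon would not be counted.

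The same fit gives the background for the genes below. At an adjusted p of 0.05 edgeR called 0 of 18329 genes (0.0%). DESeq2, run without the edgeR filter on low counts, called 102 of 33153 genes. At an unadjusted p of 0.05 edgeR called 1780 (9.71%), of which 886 were higher in NR-treated mice (4.83% of those tested) and 894 lower (4.88%).

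The cell type makeup of the samples was described by 8 marker lists, with no test of a list. Of the 8 genes of B and plasma cells all were tested, and their summed level was 91.2 to 198 CPM in NR-treated and 202 to 314 CPM in non-treated mice. The groups did not overlap in this sum, and the list had the highest correlation with Nnt over the 10 mice among the 8, with Pearson's r = 0.61 on log2 CPM. The summed level of 10 skeletal muscle genes, 9 of them tested, was 290 to 1204 CPM in NR-treated and 245 to 349 CPM in non-treated mice (r = -0.28 with Nnt). That of 8 adipocyte genes, 7 of them tested, was 69.6 to 198 and 17.04 to 62.9 CPM (r = -0.22). The groups overlapped in the muscle sum and not in the adipocyte sum. They also overlapped in the sums of the bone, neutrophil, erythroid, and Schwann cell and neuron lists, whose r with Nnt was -0.43, -0.22, 0.28 and 0.05. Every gene of these lists had reads, and their part in the Nnt difference was not tested. How many of all genes likewise did not overlap between the groups is not given here, so the sums without overlap have no background. In whole cochleae, fewer cells that express a gene and less RNA per cell cannot be told apart. The 14 cochlear genes, all tested, had a summed level of 3387 to 5076 CPM in NR-treated and 3472 to 6700 CPM in non-treated mice, and their mean log2 CPM was 5.15 ± 0.36 and 5.69 ± 0.65 (SD, n = 5 each; r = 0.08 with Nnt). Coch, a protein of the inner ear matrix, was at 2013 to 4258 CPM in the 10 mice. Otos, otospiralin of fibrocytes, was at 713 ± 184 CPM in NR-treated and 1161 ± 337 CPM in non-treated mice (log2 fold change -0.73, SE 0.22, edgeR adjusted p = 0.423). The genes of extracellular gels over the sensory cells, Otog, Tecta and Tectb, had log2 fold changes of -0.70, -1.24 and -1.43, with edgeR adjusted p-values of 0.479, 0.476 and 0.476. Like Nnt, these 4 genes had lower means in NR-treated mice, and none passed the adjusted threshold. Oc90, another gene of the cochlear list, had a higher mean in NR-treated mice (2.29 and 1.91 CPM, log2 fold change 0.25, SE 0.77).

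The genes beside Nnt on chromosome 13 are given as background for its values. Within 2 Mb of Nnt, 16 genes were tested, and 0 were called by edgeR at an adjusted p of 0.05 and 0 at an unadjusted p of 0.05. Over all tested genes the shares called were 0.0% and 9.71%. With 16 genes, nothing is read from these counts. The SD of the 16 genes on the log2 CPM scale was 0.077 to 0.71, with a median of 0.23. The highest SD, 0.71, was that of Ccl28, a chemokine of epithelia. Nnt had 0.91 over the 10 mice and 0.66 without NR-treated replicate 4, but it was chosen by its spread and had few reads, so nothing is read from this difference. Correlations with Nnt over the 10 mice ran from -0.60 (Gm9752) to 0.61 (Zfp131), with a median of 0.16.

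The nearest tested gene was Paip1, a translation factor that binds the poly(A)-binding protein, 19604 bases away. It was at 61.4 ± 3.74 CPM in NR-treated and 59.8 ± 4.0 CPM in non-treated mice (SD, n = 5 each), and its SD between mice was 0.077 on the log2 scale. The next genes on that side were 4833420G17Rik (41.6 ± 2.88 and 43.4 ± 2.47 CPM) and Gm9752 (4.41 ± 0.194 and 3.93 ± 0.775 CPM). On the other side the nearest was Fgf10, a growth factor with roles in inner ear development, 543333 bases away, at 52.1 ± 11.7 CPM in NR-treated and 66.0 ± 16.6 CPM in non-treated mice. Its log2 fold change was -0.37 (SE 0.20). Mrps30, a protein of the mitochondrial ribosome, was at 16.98 ± 1.08 and 17.2 ± 2.51 CPM.

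**Figure D3:**
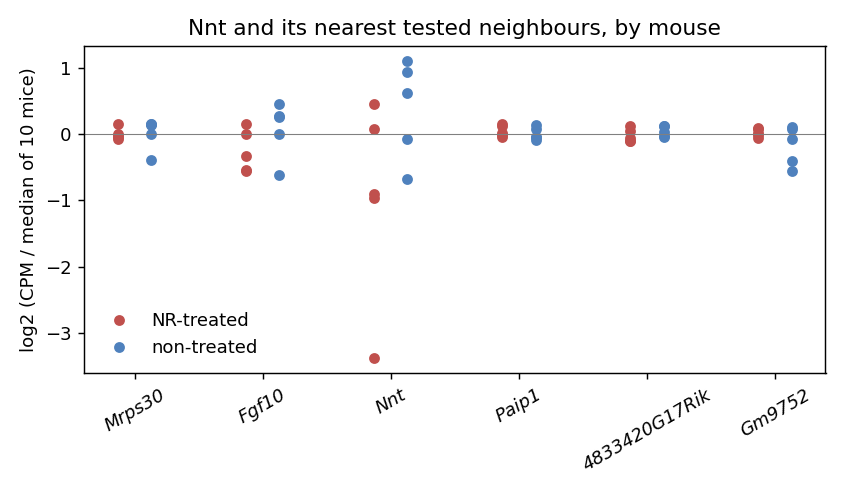
Level of Nnt and of 5 of the nearest tested genes, 2 on one side and 3 on the other, as log2 of CPM over the median of the 10 mice, in NR-treated (red) and non-treated (blue) mice. Nnt spreads from about the level of 1 read in NR-treated replicate 4 up to 0.982 CPM, while Paip1, the nearest gene, stays close to 0 in every mouse. Nnt had 1 to 23 reads per mouse, far fewer than Paip1, and was chosen by its spread.

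The other genes of NADPH supply and use were well covered by the counting, with at least 90.1% of coding bases countable in each. All 29 were tested. edgeR called 0 at an adjusted p of 0.05, and at an unadjusted p of 0.05 it called 1 higher and 0 lower in NR-treated mice, where the background was 4.83% and 4.88%. The median log2 fold change was 0.00, beside -0.01 over all tested genes, and single values ran from -0.36 (Aldh1l2) to 0.26 (Mthfd2l). Nnt at -1.01 lay outside this range, with an SE of 0.53. It was chosen with its values known and had few reads over mostly intron bases, so nothing is read from this contrast. The SD between mice was 0.054 to 0.51 on the log2 CPM scale, with a median of 0.17.

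Among enzymes that make NADPH or NADP+ inside mitochondria, Idh2, the NADP+-dependent isocitrate dehydrogenase of the matrix, was at 96.4 ± 5.03 CPM in NR-treated and 95.6 ± 12.3 CPM in non-treated mice (SD, n = 5 each). Its log2 fold change was -0.02 (SE 0.08, edgeR adjusted p = 0.964). Me3, a mitochondrial malic enzyme, was at 32.8 ± 2.59 and 29.3 ± 3.59 CPM. Glud1, glutamate dehydrogenase, was at 180 ± 3.51 and 175 ± 9.54 CPM. The levels of these 3 genes overlapped between the groups.

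Mthfd2, a folate enzyme of the matrix, had means of 25.8 and 25.2 CPM. Mthfd2l, its paralog, was the member at an unadjusted p under 0.05. It was at 14.4, 13.7, 13.7, 13.3 and 13.3 CPM in NR-treated replicates 1 to 5 and at 13.4, 10.8, 11.8, 10.3 and 9.87 CPM in non-treated replicates 1 to 5. Non-treated replicate 1 lay within the NR-treated range, and the other 4 lay below it. The log2 fold change was 0.26 (SE 0.09, edgeR adjusted p = 0.458), which did not pass the adjusted threshold. Nadk2, the NAD+ kinase of mitochondria that makes their NADP+, was at 41.9 ± 3.84 and 49.2 ± 11.1 CPM, with a log2 fold change of -0.25 (SE 0.12, edgeR adjusted p = 0.542). Slc25a51, the carrier that brings NAD+ into mitochondria, was at 151 ± 11.6 and 161 ± 35.3 CPM.

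The 9 genes of cytosolic and endoplasmic reticulum NADPH supply, such as G6pdx of the pentose phosphate pathway, had log2 fold changes of -0.07 to 0.16. The 10 genes of thiol and peroxide control that draw on NADPH, directly or through glutathione or thioredoxin, had values of -0.20 to 0.20. Per transcript length, the highest members were Gpx1 and Gpx4, glutathione peroxidases, and Prdx5, a peroxiredoxin, with mean TPM of 1225, 769 and 382. Per kb of countable exon, Gpx1 was at 402 CPM and Idh2 at 37.1 CPM, and Nnt was at 0.133 CPM. That order holds for the counts only, since the countable bases of Nnt are mostly intron of its coding transcript while at least 90.1% of the coding bases of Idh2 could be counted.

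**Figure D4:**
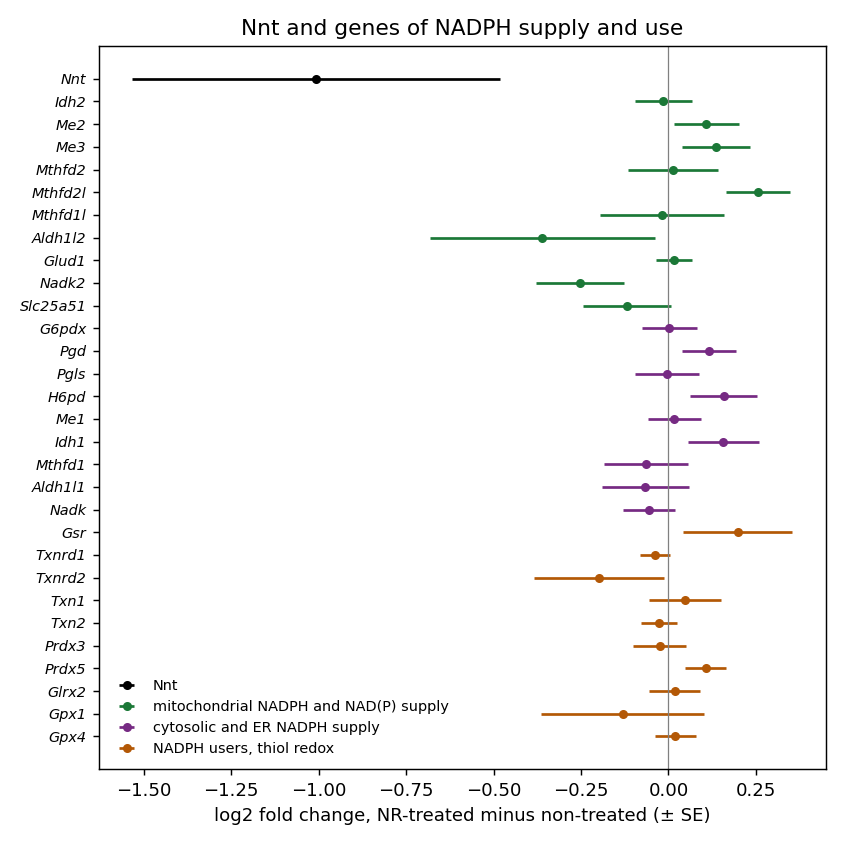
Log2 fold change, NR-treated minus non-treated, with its SE for Nnt and the 29 genes of NADPH supply and use, coloured by role. The 29 genes lie between -0.36 and 0.26, and Nnt lies at -1.01 with the widest SE, 0.53. Nnt was chosen by its spread between these mice and had 1 to 23 reads per mouse.

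Correlation with Nnt within this list ran from -0.73 (H6pd) to 0.46 (Glud1) over the 10 mice. Over all other 18328 tested genes, 69 had a correlation beyond 0.8 in size. The 5 highest were Slc25a32 (r = 0.94), a mitochondrial folate carrier, Lrrc40 (0.93), Mtag2 (0.91), Golga7 (0.91) and 2210406O10Rik (0.90). The 5 lowest were Pde8b (-0.94), Il22ra1 (-0.92), Myh14 (-0.91), Adh7 (-0.91) and Wdr34 (-0.89). These are descriptions over 10 libraries in which Nnt had 1 to 23 reads. Without NR-treated replicate 4, the mouse with 1 read, 0 of these 10 genes were among the 10 most correlated.

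Some other genes known to differ between inbred strains were set beside Nnt. Wdfy1 was at 58.9 to 69.8 CPM, Ide at 56.5 to 66.0 and Glo1 at 84.7 to 101 CPM in the 10 mice. Alad, an enzyme of haem synthesis that has extra copies in some strains, was at 172 to 297 CPM. It had r = 0.61 with Nnt, where the other tested genes of this list and Cdh23 had -0.31 (H2-Ea-ps) to 0.12 (Gbp2b). In each of Wdfy1, Ide, Glo1 and Alad the highest mouse was less than 2 times the lowest. For Nnt the ratio to the second lowest mouse was 4.19, the lowest having 1 read, but Nnt was chosen by its spread. Low genes varied more. Gbp2b was at 0.132 to 1.71 CPM, with an SD of 1.00 on the log2 scale, H2-Ea-ps at 1.12 to 4.79, Ifi202b at 2.54 to 5.43 and Nlrp1b at 1.00 to 2.00 CPM. Hc, complement C5, was at 0.0461 to 0.492 CPM and did not pass the filter on low counts. Entpd4 and Entpd4b are near-identical copies that share reads, so they are uncertain, and the first was at 0 to 0.214 CPM and the second had 0 reads. Cdh23, the tip-link cadherin of hair cells whose ahl allele is tied to hearing loss, was at 10.0 ± 1.71 CPM in NR-treated and 15.8 ± 8.11 CPM in non-treated mice (log2 fold change -0.68, SE 0.30, edgeR adjusted p = 0.499). Non-treated replicates 3 and 4 were at 21.2 and 27.5 CPM and the other 8 mice at 8.21 to 12.8 CPM. The same 2 libraries were the highest of the 10 for Otog (440 and 387 CPM), Tecta (39.8 and 33.7), Tectb (31.6 and 29.5) and Slc26a5, the motor protein of outer hair cells (2.38 and 5.61), and the part of these in the Cdh23 values was not tested. Nnt was lowest of its group in these 2 mice, at 0.287 and 0.435 CPM.

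The sample labels give the mice as female and the study's methods describe male mice. Ddx3y of the Y chromosome was at 64.9 to 83.8 CPM and Xist, expressed from the inactive X chromosome, at 0.0869 to 0.410 CPM in the 10 mice, which goes against the label in all of them. Nnt is autosomal.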

How the data were processed

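Whole cochleae of 5 NR-treated and 5 non-treated mice were analysed. The deposited values are raw counts per gene, 1 table per mouse, with no normalization by the authors. Per the study's methods and the submitters' processing notes, the authors prepared unstranded poly(A) libraries, filtered reads with fastp, aligned them to mm10 with STAR (2.6.1d, up to 2 mismatches) and counted with featureCounts (1.5.0) in default mode. Their annotation release is not given in the sources used here. GENCODE vM21 held 54495 of the 54532 identifiers, and 97.9% of all identifiers in the tables had the same exon length there. Exon bases covered by no other listed gene on either strand were called countable. The span of a read was not taken into account.

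CPM is the count of a gene per 1e6 counts of its library. Genes that passed filterByExpr (18329) were fitted with edgeR 4.0.16 (R 4.3.3, TMM, glmQLFit, glmQLFTest, no covariate), and p-values were adjusted over all of them by the Benjamini-Hochberg method. DESeq2 1.42.0 was an alternative, and the fit was tested on simulated data. Log2 CPM for spreads and correlations used a prior count of 2. TPM used the tables' gene lengths. Tables and figures were made with python 3.11.15. Libraries were compared in all 45 pairs, and none agreed within sampling noise. The labels do not say how each library was drawn beyond 1 sample per mouse.

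Nnt, the lists and the tests were chosen with earlier results of these data known, and the analysis of countable bases was added after the Nnt counts were seen. Genes named are Nnt, selected NADPH genes, any of that list at an unadjusted p of 0.05 and its 3 highest by TPM, 3 neighbours on each side (1 of them is not reported here), 5 genes most correlated in each direction, the strain-variable list with Cdh23, Xist and Ddx3y. The strain-variable gene Mela was not matched. Alternatives were other size factors, library totals, no filter, DESeq2, a replicate block, a prior count of 0.5 and leaving out each mouse.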

Additional observations from a re-analysis of the deposited data

Results flagged for a closer look

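Nnt itself had no mouse standing apart from its group by Dixon's ratio, in either group of 5. Among 26 groups checked, for 13 genes named above, 3 held such a mouse, where chance gives about 1 in 20. Nadk2 was at 68.6 CPM in non-treated replicate 1 and at 41.7 to 47.1 CPM in the other 4 of the group. Slc25a51 was at 171 CPM in NR-treated replicate 5 and at 145 to 147 CPM in the others. Mrps30 was at 18.8 CPM in NR-treated replicate 3 and at 16.1 to 16.9 CPM in the others.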

How the results depend on the processing

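The Nnt log2 fold change of -1.01 stayed negative under every alternative: -1.01 with DESeq2 size factors, -0.98 with library totals, -0.99 with no filter, -1.03 in DESeq2, -1.07 with the replicate block, and -1.39 (without NR-treated replicate 2) to -0.71 (without NR-treated replicate 4) when 1 mouse was left out. The SE of these log2 fold changes was 0.45 to 0.59. All of the alternatives reuse reads of the same mice, so the constant sign is not independent support. The SD of Nnt between mice was 1.17 with a prior count of 0.5 and 0.66 to 0.96 without 1 mouse. Genes called at an adjusted p of 0.05 were 0 in edgeR, 102 of 33153 in DESeq2 without the filter on low counts, and 0 to 1 without 1 mouse. At an unadjusted p there were 1780, and 1153 to 2440 without 1 mouse, the lowest without NR-treated replicate 3. NADPH genes at an unadjusted p were 1, 2 with library totals and 1 to 3 without 1 mouse. Neighbours of Nnt at an unadjusted p were 0, 1 with the replicate block and 0 to 3 without 1 mouse. Of the 10 genes most correlated with Nnt, 4 stayed so on deviations from group means and 0 to 8 without 1 mouse. The causes of these shifts were not tested. Both groups share replicate numbers 1 to 5, but same-numbered mice did not deviate together (r = -0.22 to 0.17, and 0 of 5 best with their own number). These correlations gave no sign of pairing by number but cannot exclude a shared litter, cage or batch, which the labels do not give. The replicate block gave 1655 genes at an unadjusted p. With 1 to 23 reads per mouse, Nnt differences between most mice were not detectable at this depth.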
